A study of Drosophila melanogaster with 18 samples.

Results

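Eye-antennal discs that had lost both scrib and fos were set against control discs, to see what remained abnormal in scrib mutant tissue without fos. The 6 libraries were chosen by genotype label, 3 of scrib fos and 3 of control, out of 18 libraries of 6 genotypes in the study. The eye-antennal disc is the larval epithelium that forms the adult eye, antenna and head capsule of Drosophila melanogaster, and its messenger RNA was counted in larvae of the third instar. The scrib fos discs carried scrib1 and fosKM together on the FRT82B arm, and the control discs carried the FRT82B arm without either allele. The scrib single mutant (scrib1), with 3 libraries, and the fos single mutant (fosKM), with 3 libraries, were used beside them, and the CtBP87De-10 genotypes entered only the shared estimate of the spread. All of these discs had a cell-lethal FRT82B arm opposite the arm under study and a flippase driven by the eyeless enhancer (eyFLP). In that system recombination leaves discs built mainly of cells homozygous for the arm under study, and cells that did not recombine, or that lie outside the eyeless domain, keep the other arm. Cells were sorted, by a gate that none of the labels names, and RNA of several sorting days was pooled into each library, so p-values measure the spread between these pools only. Other differences between the scrib1 fosKM chromosome and the control chromosome cannot be told apart from the loss of the 2 genes.

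Scribble is a scaffold protein of the basolateral membrane that keeps epithelial cells polarised, and scrib mutant discs are known to overgrow as disorganised, poorly differentiated tissue. Loss of Scribble activates the JNK kinase cascade, whose nuclear effectors Fos (the kay gene) and Jun form the AP-1 transcription factor. It also frees Yorkie, the growth-promoting co-activator that the Hippo kinases hold back. In the eye disc, a front of differentiation called the morphogenetic furrow turns progenitor cells into photoreceptors and cone cells with the help of Notch and EGFR signals.

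The transcripts of the mutated genes did not mark the genotype. Levels are given in CPM, the count of a gene scaled to a common library size with TMM factors, for replicates 1, 2 and 3. The scrib gene (FBgn0263289; dm6, 3R, 26536350 to 26604051) had 438, 427 and 449 CPM in scrib fos and 463, 486 and 471 CPM in control. The groups did not overlap, but the log2 fold change of -0.11 (95% interval -0.26 to 0.04) did not pass the test (edgeR quasi-likelihood, Benjamini-Hochberg adjusted p = 0.216). The kay gene (FBgn0001297; 3R, 29765995 to 29794113) had 151, 119 and 146 CPM in scrib fos and 134, 84.1 and 108 CPM in control. These groups overlapped, and the call of a higher level (log2 fold change 0.35, adjusted p = 0.0432) depended on the libraries and the fit. It was lost without scrib fos replicate 1 (0.131) or 3 (0.108) or without control replicate 2 (0.0973) or 3 (0.0717). With all libraries it was lost when only the compared groups were fitted (0.207). The same held with no filter (0.0515) and with a filter of at least 5 CPM in 3 libraries (0.0514). The labels do not describe the fosKM lesion, so a kay transcript count is no check of the label.

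Libraries of the 4 genotypes used held 25672312 to 35510575 counts. Replicate 1 of every genotype had the largest share of Hsp70 heat shock transcripts, which took 0.537% of counts in scrib fos and 0.744% in control, against at most 0.0767% in the other scrib fos libraries and 0.0841% in the other control libraries. The main list counts were therefore also made without replicate 1 of every genotype. Defining genes of the labelled tissue were present: all 12 genes of the eye specification list and all 12 of the antennal patterning list were detected well enough to be tested, with summed levels of 3292 to 3560 CPM and 1739 to 1894 CPM in scrib fos and of 3244 to 3337 CPM and 1970 to 2027 CPM in control.

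Of 10834 genes tested, 5054 (46.6%) were called in scrib fos against control at an adjusted p below 0.05, and 4831 were called without replicate 1 of every genotype. Called genes were split into 2398 higher (22.1%) and 2656 lower (24.5%). These shares are the background for each count of list members called in scrib fos against control. The median log2 fold change of all genes was -0.02. Most shifts were small. At a change of at least 2-fold the picture was lopsided, with 1171 genes called (10.8%), 91 higher (0.84%) and 1080 lower (9.97%) in scrib fos. The scrib single mutant, against the same control libraries, had 389 higher (3.59%) and 1131 lower (10.4%) by that measure, and scrib fos against scrib had 283 higher (2.61%) and 575 lower (5.31%). Libraries of scrib fos and control did not overlap in 54.9% of all genes, and those of scrib fos and scrib in 44.2%, the background for each statement on overlap that follows. Each pair of these comparisons shares the libraries of a genotype, so no overlap between them is read as a result.

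An overlap without shared libraries was available from scrib against control and scrib fos against fos. Of the 389 genes raised at least 2-fold in scrib, 133 (34.2%) were also called higher in scrib fos than in fos, where 23% of all genes were called higher. A further 41 were called lower and 215 were not called, and the median log2 change of the 389 was 0.18 in scrib fos against fos and 1.57 in scrib against control. Of the 1131 genes lowered at least 2-fold in scrib, 901 (79.7%) were also called lower in scrib fos than in fos, where 24.4% of all genes were called lower, 7 were called higher and 223 were not called. Their median was -1.30 in scrib fos against fos and -1.83 in scrib against control.

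**Figure D1:**
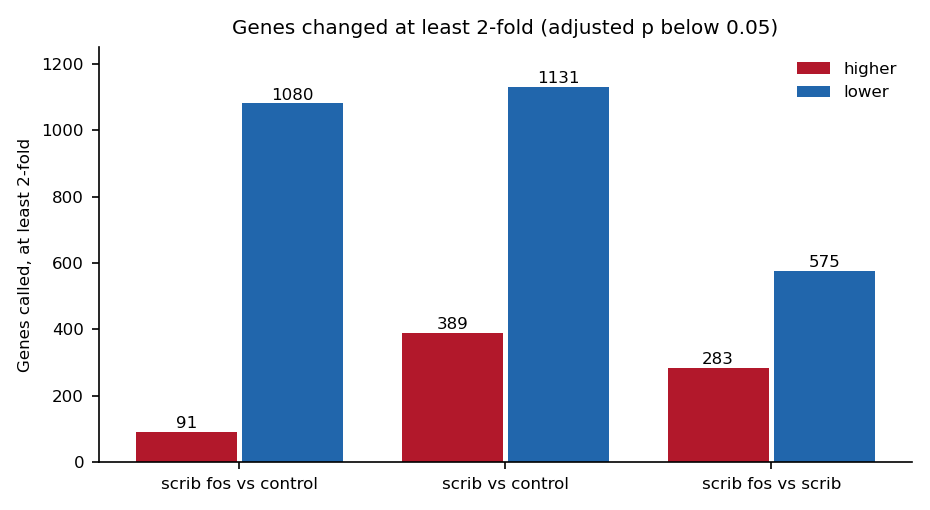
Number of genes called at an adjusted p below 0.05 with a change of at least 2-fold (vertical axis), higher (red) and lower (blue), in scrib fos against control, scrib against control and scrib fos against scrib. The bar of higher genes is 91 in scrib fos and 389 in scrib against the same control, while the bars of lower genes are 1080 and 1131.

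Most JNK and AP-1 targets were no longer raised. Of 16 targets, 6 were higher and 4 lower in scrib fos than in control, with a median log2 change of -0.08, and without replicate 1 of every genotype 6 were higher and 6 lower. In scrib against control, where 27.8% of all genes were higher and 25.7% lower, 13 targets were higher and 2 lower. Against scrib, scrib fos had 13 of the 16 lower and 2 higher, where 20.2% of all genes were lower and 17.6% higher. Over all genes, 46.5% of the calls against scrib were higher, and 57% with upper quartile scaling. Among 15 components of the JNK pathway, 4 were higher and 5 lower than control, with a median of -0.08, and without replicate 1 of every genotype 2 were higher. The Jun gene Jra, the partner of Fos, rose by 0.28, and the adaptor gene Traf4 fell by 0.72.

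The JNK phosphatase puc (3R, 8105332 to 8122294), a feedback inhibitor read as a reporter of JNK activity, had 50.9, 42.2 and 41.5 CPM in scrib fos, 125, 123 and 123 CPM in scrib, 39.4, 37.2 and 40.3 CPM in fos and 48.5, 40.4 and 46.1 CPM in control. Scrib fos overlapped control and lay far below scrib. The difference from control was -0.01 (95% interval -0.15 to 0.14, adjusted p = 0.963).

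The matrix metalloproteinase gene Mmp1 had 36.7, 26.6 and 31.0 CPM in scrib fos, 551, 523 and 509 CPM in scrib and 74.9, 46.5 and 41.6 CPM in control. It fell below control (log2 fold change -0.79, SE 0.19, adjusted p = 0.0042), with no overlap, although the call was lost when only the compared groups were fitted (0.0827). The insulin-like peptide gene Ilp8, which delays pupariation, had 1.51, 1.29 and 1.11 CPM in scrib fos, 61.6, 69.7 and 83.0 CPM in scrib and 3.11, 0.613 and 1.41 CPM in control, so that scrib fos lay within the control range (-0.42, adjusted p = 0.467, and 0.36 without control replicate 1).

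A few targets kept part of their excess. The serine protease homologue gene scaf, a marker of the peripodial and wound-edge epithelium, had 226, 216 and 212 CPM in scrib fos, 420, 407 and 365 CPM in scrib and 112, 100 and 114 CPM in control. Scrib fos stood between the other groups with no overlap, at a log2 fold change of 1.00 against control (SE 0.07, adjusted p = 7.06e-10) and -0.87 against scrib (adjusted p = 4.35e-09). The filamin gene cher rose by 0.49 against control (adjusted p = 0.000249), where scrib was 2.09 above the same control. The secreted insulin antagonist gene ImpL2 rose by 0.70 against control and was lower than in scrib (-0.43, adjusted p = 0.000838). The cell death gene rpr rose by 0.42, and its difference from scrib (-0.24) was not called when any 1 library of either genotype was left out. The stress gene Gadd45 followed another pattern. It rose by 0.76 against control, where scrib was not called (0.23). Its call of a higher level than in scrib (0.53) was lost without scrib fos replicate 1 or 3 or without scrib replicate 2 or 3. It was also lost when only the compared groups were fitted (0.0761) and with a replicate block.

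The ETS factor gene Ets21C, another JNK-induced regulator, averaged 2.41 ± 1.79 CPM in scrib fos, 35.5 ± 4.09 CPM in scrib and 9.42 ± 6.23 CPM in control (SD, n = 3 each). Its fall against control (-1.97, adjusted p = 0.0052) varied with the libraries, at -1.28 without control replicate 1 and -2.74 without scrib fos replicate 1, and was not called when only the compared groups were fitted (0.108).

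The cytokine genes of the JAK/STAT pathway were not called against control with all libraries, and replicate 1 moved their values widely. The genes upd1, upd2 and upd3, which encode its ligands, were not called in scrib fos against control (-0.37, -0.65 and -0.50) and stood 3.15 to 3.91 above control in scrib. Levels of upd2 were 3.46, 0.185 and 0.454 CPM in scrib fos and 5.74, 0.216 and 0.317 CPM in control, high in replicate 1 of both. The change of upd2 was 2.34 without control replicate 1 and -2.64 without scrib fos replicate 1, neither of them called, and that of upd3 was 0.63 without control replicate 1. The call changed for upd1 without control replicate 2 (-0.54, adjusted p = 0.0225) and for upd3 without scrib fos replicate 1 (-2.19, adjusted p = 0.0413). Socs36E, the feedback inhibitor of the pathway, had 79.9, 70.3 and 75.9 CPM in scrib fos and 114, 97.1 and 106 CPM in control. The groups did not overlap, and Socs36E fell by 0.49 on the log2 scale (adjusted p = 3.72e-05). The transcription factor gene chinmo, which holds cells in an early temporal identity, fell by 0.62 (adjusted p = 0.0015), where scrib was 1.63 above control. In all, 1 of 10 JAK/STAT genes was higher (Ptp61F, not called under the filter of 5 CPM) and 3 were lower, the last of these being et, an inhibitor of the receptor (-1.07).

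**Figure D2:**
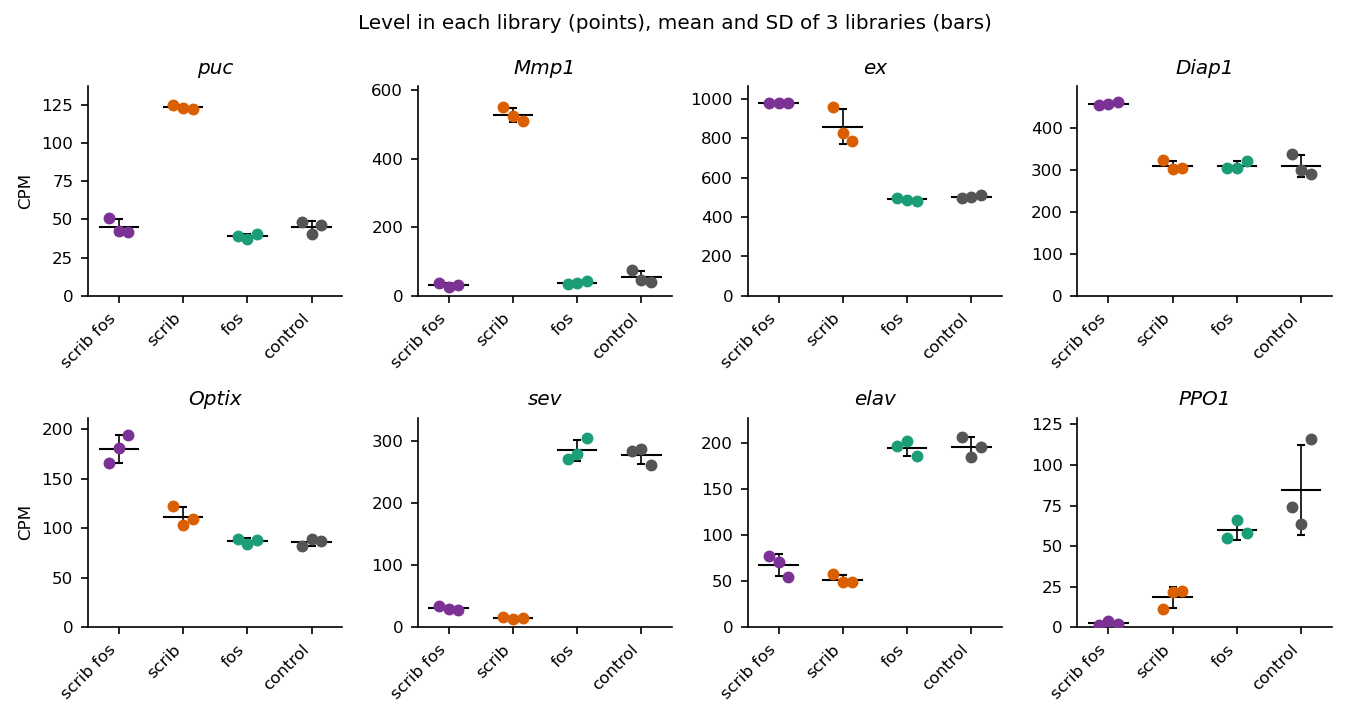
Level in CPM (vertical axes, from 0) of 8 genes in each library of scrib fos, scrib, fos and control; points are libraries, the horizontal bar is the mean and the error bar 1 SD of 3 libraries. The genes puc and Mmp1 are high in scrib alone, ex is high in scrib fos and scrib, Diap1 and Optix are highest in scrib fos, sev and elav are low in scrib fos and scrib, and PPO1 is lowest in scrib fos.

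Targets of Yorkie were mostly above control. Of 14, 8 were higher and 2 lower in scrib fos than in control, with a median log2 change of 0.34, and the counts were the same without replicate 1 of every genotype. The scrib mutant, against the same control libraries, had 9 higher and 4 lower, with a median of 0.30. Of the 8, 7 were called under every alternative tried, the exception being crb (0.24). Its call was lost without scrib fos replicate 1 or 3, without control replicate 3 or under the filter of 5 CPM (0.0524). The Hippo regulator expanded (ex; 2L, 431227 to 448701), which restrains Yorkie and is itself induced by it, had 978, 978 and 975 CPM in scrib fos, 957, 826 and 787 CPM in scrib, 497, 488 and 482 CPM in fos and 494, 504 and 511 CPM in control. Scrib fos and scrib lay above the other groups with no overlap. The log2 fold change was 0.96 against control (SE 0.06, adjusted p = 1.06e-10) and 0.19 against scrib (adjusted p = 0.015), a call lost when only the compared groups were fitted (0.0971) and without scrib replicate 2 (0.0537) or 3 (0.071).

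The WW-domain scaffold gene kibra (3R, 14697689 to 14724261), which acts beside ex, had 116, 113 and 124 CPM in scrib fos, 135, 120 and 112 CPM in scrib and 48.4, 45.6 and 42.4 CPM in control. Its log2 fold change was 1.37 against control (SE 0.07, adjusted p = 1.45e-11) and -0.06 against scrib (95% interval -0.20 to 0.09), so that the excess over control in scrib fos was within the spread of that in scrib. The glypican genes dally and dlp, which encode co-receptors for secreted growth factors, rose by 0.77 and 0.71, and the Golgi kinase gene fj, which tunes the cadherins Fat and Dachsous, by 0.44. The level of fj in scrib fos stood 0.78 below that in scrib (adjusted p = 5e-11).

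Of the 14 targets, 7 were called higher in scrib fos than in scrib and 3 lower, of which 3 and 2 were called under every alternative tried. Without replicate 1 of every genotype 7 were higher and 2 lower. The caspase inhibitor gene Diap1 (3L, 16038410 to 16051034) had 455, 456 and 463 CPM in scrib fos, 324, 303 and 305 CPM in scrib, 304, 304 and 322 CPM in fos and 339, 299 and 291 CPM in control. The 3 scrib fos libraries lay above the other 9 of these, and the log2 fold change was 0.57 against control (SE 0.05, adjusted p = 3.06e-08) and 0.56 against scrib (adjusted p = 3.21e-08). CycE, the cyclin that starts DNA replication, had 125, 120 and 116 CPM in scrib fos, 99.4, 93.3 and 86.9 CPM in scrib and 74.0, 75.1 and 76.2 CPM in control, rising by 0.68 against control and by 0.37 against scrib. The ligand gene Wnt2 fell by 0.82. The growth regulator gene Myc fell by 0.32, a call lost without scrib fos replicate 2 or 3 or without control replicate 1 or 3, and wg, Ser, E2f1 and Mer were not called, although Mer was without scrib fos replicate 2 (0.17, adjusted p = 0.0161). Among 19 components of the Hippo pathway itself, 4 were higher and 6 lower, with changes of at most 0.49 in size. Of these, 2 of the higher and 3 of the lower were called under every alternative tried. The kinase gene hpo was not called (-0.04). The gene yki itself was not called in the main fit (0.12, adjusted p = 0.0619). It was called without scrib fos replicate 1 (0.0302) or 2 (0.02) or without control replicate 2 (0.0262). With all libraries it was called with DESeq2 size factors (0.044), by the DESeq2 test (0.0492) and with no filter (0.0305). The same held with a replicate block (0.0439) and without ribosomal RNA genes (0.0327).

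Cell cycle genes rose with them by small amounts. Of 27 cell cycle and replication genes, 21 were higher and 4 lower in scrib fos than in control, with a median of 0.30. Without replicate 1 of every genotype 18 were higher and 4 lower. PCNA, the clamp of the replicating DNA polymerase, had 236, 241 and 265 CPM in scrib fos and 150, 170 and 179 CPM in control, with no overlap (log2 fold change 0.57, SE 0.07, adjusted p = 1.6e-06). The replication licensing genes Mcm3 and dup rose by 0.56 and 0.50, and the mitotic kinase gene aurB by 0.53. The 4 that fell were dap, the inhibitor of Cyclin E and Cdk2 (-0.48), stg, the phosphatase that starts mitosis (-0.31), CycD (-0.28) and fzr (-0.21), which holds cells in G1. The call of fzr was lost without scrib fos replicate 2 or 3 or without control replicate 3.

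Some of the genes with the largest rise have no place in these pathways. Tektin-C (3L, 5794405 to 5796543), which encodes a filament protein of cilia and sperm tails, had 44.9, 43.8 and 57.2 CPM in scrib fos, 44.5, 46.1 and 41.2 CPM in scrib, 0.298, 0.222 and 0.388 CPM in fos and 0.307, 0.144 and 0.388 CPM in control. It was near 0 in fos and control and high in scrib fos and scrib (log2 fold change 7.41 against control, SE 0.18, adjusted p = 1.01e-15). The immunoglobulin-domain gene dpr16 (3R, 5150908 to 5170121) had 19.9, 21.1 and 23.4 CPM in scrib fos, 27.7, 25.7 and 24.9 CPM in scrib and 3.07, 3.79 and 4.19 CPM in control (2.55, adjusted p = 3.95e-13). The zinc transporter gene ZnT77C rose by 2.11, the intraflagellar transport gene Oseg5 by 1.60 and thw, which encodes a zona pellucida domain protein of the apical surface, by 1.51. On 3R, the arm of both mutations, 49.4% of the tested genes were called, against 44.9% to 46.7% on X, 2L, 2R and 3L. On chromosome 4, which carries neither mutation, 50% of 96 tested genes were called.

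In other genes the excess of scrib was partly lost. These were chosen as called against control and called in the opposite direction against scrib. Their place between scrib and control is therefore the rule and not a finding. FASN1, the fatty acid synthase gene, had 363, 330 and 350 CPM in scrib fos, 1238, 1053 and 1005 CPM in scrib and 151, 151 and 158 CPM in control, so that scrib fos lay between the others with no overlap (1.18 against control, adjusted p = 4.89e-10, and -1.66 against scrib, adjusted p = 2.6e-12). The nuclear lamin gene LamC averaged 99.9 ± 14.4 CPM in scrib fos, 195 ± 7.88 CPM in scrib and 46.4 ± 5.23 CPM in control (SD, n = 3 each), and the asparagine synthetase gene AsnS 26.2 ± 0.685 CPM in scrib fos, 36.9 ± 0.957 CPM in scrib and 12.7 ± 0.510 CPM in control.

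A last group had returned to control. These were chosen as genes with a 95% interval of the change against control inside -0.5 to 0.5, so their closeness to control is the rule and not a finding. Those most raised in scrib were wun2, a lipid phosphate phosphatase gene, the centriole gene Rcd2, the VEGF-like ligand gene Pvf3, the transcription factor gene apt and mfas, which encodes a fasciclin-domain adhesion protein. The adhesion gene mfas had 109, 97.3 and 118 CPM in scrib fos, 537, 529 and 511 CPM in scrib and 116, 120 and 115 CPM in control. Those most lowered in scrib were Map205, Osi24, dan, Elovl7 and ana. Map205, a microtubule-binding protein gene, had 508, 495 and 429 CPM in scrib fos, 133, 114 and 124 CPM in scrib and 534, 523 and 532 CPM in control. Within that interval Osi24 (-0.23), dan (-0.36) and Elovl7 (-0.28) were still called lower than control, Osi24 not without scrib fos replicate 3 and Elovl7 not without control replicate 1 or 3. Without control replicate 1, wun2 (0.41, adjusted p = 0.00631), Rcd2 (0.36, adjusted p = 0.0128) and Pvf3 (0.33, adjusted p = 0.0373) were called higher than control.

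**Figure D3:**
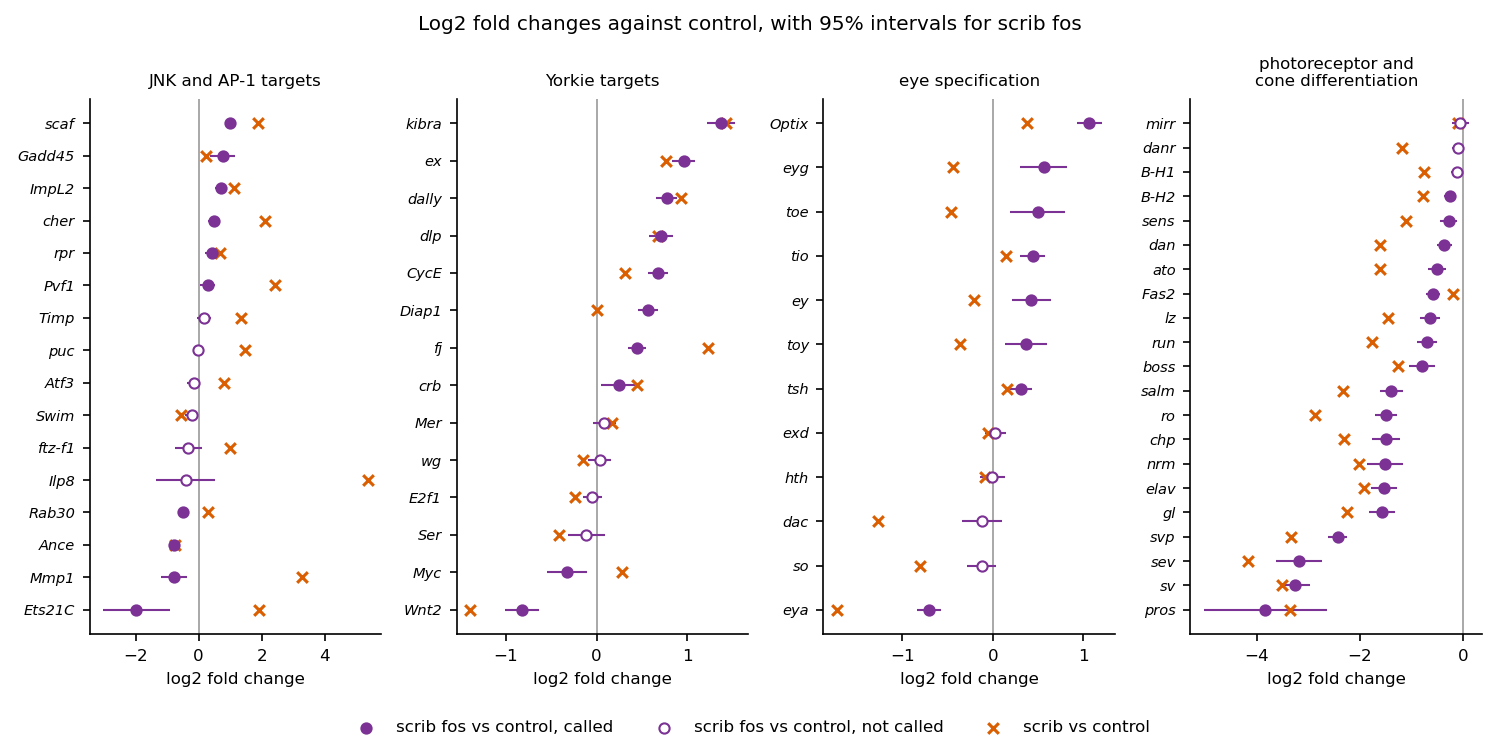
Log2 fold change (horizontal axes) of the tested members of 4 gene lists in scrib fos against control (purple, filled where called, with 95% intervals) and in scrib against the same control libraries (orange crosses). Of 16 JNK and AP-1 targets, 6 (such as scaf) are called right of 0 in scrib fos and 4 (such as Mmp1) left of it. Of 14 Yorkie targets, 8 (such as kibra and ex) are called right of 0 and 2 left. Of 12 eye specification genes, 7 (such as Optix) are called right of 0 and 1 left, and 18 of 21 photoreceptor and cone genes are called left of it.

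Transcripts of most listed genes of retinal differentiation remained below control. Of 21 photoreceptor and cone genes, 18 were lower and 0 higher in scrib fos than in control, by the edgeR test, with a median of -0.79. At an unadjusted p below 0.05, and with DESeq2, the count of higher genes was also 0. All 18 were called lower under every alternative tried, which included DESeq2 and leaving out each library. The scrib mutant, against the same control, had 20 of 21 lower and a median of -1.77. Against scrib, scrib fos had 17 of the 21 higher and 1 lower (Fas2). The level of these genes was thus above that of scrib for most and below that of control for most.

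The gene sev (X, 11071441 to 11086299), the receptor tyrosine kinase that specifies the R7 photoreceptor, had 34.4, 29.5 and 27.6 CPM in scrib fos, 17.2, 14.2 and 14.5 CPM in scrib, 271, 279 and 304 CPM in fos and 283, 287 and 261 CPM in control. Scrib fos lay above scrib and far below control, with no overlap, at a log2 fold change of -3.18 against control (SE 0.20, adjusted p = 3.54e-08) and 0.99 against scrib (adjusted p = 0.00183). The cone cell factor gene sv had 1.81, 1.63 and 1.25 CPM in scrib fos and 16.1, 15.1 and 13.5 CPM in control (-3.26, adjusted p = 3.4e-13), and did not differ detectably from scrib (0.25, adjusted p = 0.313). The gene pros, a factor of R7 and cone cells, had 3.56, 1.66 and 0.965 CPM in scrib fos and 34.1, 30.4 and 22.4 CPM in control (-3.84, adjusted p = 9.89e-05), and its fall was -4.50 without scrib fos replicate 1.

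Genes of early and late steps of differentiation were both low. For ato and sens, which select the founder photoreceptor R8 at the furrow, the changes were -0.51 and -0.28 in scrib fos and -1.61 and -1.10 in scrib, against the same control. For genes of later steps, elav (all neurons) and gl (photoreceptors behind the furrow), they were -1.53 and -1.57 in scrib fos and -1.92 and -2.26 in scrib. The level of elav was 77.3, 70.7 and 54.9 CPM in scrib fos and 206, 184 and 196 CPM in control. The other 3 of the list, B-H1, danr and mirr, were not called (-0.12, -0.11 and -0.05). In bulk RNA, fewer cells of a type and less RNA per cell cannot be told apart.

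Neuronal genes were low as well. Of 16 neuronal and neuroblast genes, 15 were lower and 0 higher in scrib fos than in control, with a median of -1.98, and the counts were the same without replicate 1 of every genotype. At an unadjusted p below 0.05, and with DESeq2, the count of higher genes was again 0. The prohormone convertase gene amon had 3.09, 2.92 and 2.78 CPM in scrib fos, 1.57, 1.90 and 1.92 CPM in scrib and 25.3, 25.6 and 26.3 CPM in control (-3.14, adjusted p = 4.63e-15). The synaptic active zone gene brp averaged 20.7 ± 2.04 CPM in scrib fos, 15.4 ± 2.63 CPM in scrib and 104 ± 5.84 CPM in control (SD, n = 3 each). The kinesin adaptor gene Aplip1, which scaffolds JNK signalling in axons, fell by 2.70. The neuronal factor gene nerfin-1 fell further in scrib fos (-3.10) than in scrib (-2.05), a difference of -1.04 (adjusted p = 7e-07). The immunoglobulin gene fipi (2L, 4734592 to 4794044), which acts in neurons, fell by 3.46 in scrib fos and by 3.72 in scrib.

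Genes of the signals that drive retinal differentiation followed. Of 16 Notch targets and ligands, 12 were lower and 1 higher (fng, 0.30), with a median of -0.78, and without replicate 1 of every genotype 11 were lower. The bHLH repressor gene E(spl)mdelta-HLH, induced by Notch behind the furrow, had 22.1, 22 and 18.2 CPM in scrib fos, 16.1, 11.8 and 11.8 CPM in scrib and 73.3, 69.9 and 73.2 CPM in control (-1.80, adjusted p = 7.45e-09). The ubiquitin ligase gene neur, which activates the ligand Delta, fell by 1.10, and the Delta gene itself by 0.33.

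All 11 EGFR pathway genes were called, 4 higher and 7 lower, with the same counts without replicate 1 of every genotype. The proteases that release the ligand Spitz fell, ru by 1.99 and rho by 0.95, as did the nuclear effector gene pnt (1.20) and the feedback inhibitor genes aos, kek1 and sty. The receptor gene Egfr rose by 0.31, the ligand genes spi and vn by 0.23 and 0.44, and edl, an inhibitor of the repressor Yan and of Pointed, by 0.34. The level of ru was 24.5, 25.5 and 21.4 CPM in scrib fos, 9.60, 10.9 and 10.3 CPM in scrib and 92.5, 95.3 and 94.9 CPM in control, so that the 3 genotypes did not overlap.

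Eye progenitor genes went the other way. Of 12 eye specification genes, 7 were higher and 1 lower in scrib fos than in control, with a median of 0.34, and 6 were higher without replicate 1 of every genotype, where toy (0.36 with all libraries) was not called. In scrib, against the same control, 2 were higher and 6 lower. Optix (2R, 8031283 to 8042529), a Six-family factor that promotes eye development, had 166, 181 and 194 CPM in scrib fos, 122, 104 and 109 CPM in scrib, 89.1, 84.0 and 88.5 CPM in fos and 81.9, 89.2 and 87.4 CPM in control. The scrib fos libraries were the highest of the 12, at a log2 fold change of 1.07 against control (SE 0.07, adjusted p = 1.05e-10) and 0.69 against scrib (adjusted p = 4.06e-08).

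The Pax gene eyg, needed for eye growth, had 83.2, 93.8 and 106 CPM in scrib fos, 53, 44.8 and 43.1 CPM in scrib and 68.4, 63.2 and 60.0 CPM in control. It stood above control in scrib fos and below it in scrib (0.56 and -0.44, adjusted p = 0.00155 and 0.00774). Its close relative toe followed the same pattern (0.50 and -0.46), and the selector gene ey rose by 0.43. The retinal determination genes dac and so were not called against control (-0.12 each) and stood 1.15 and 0.68 above scrib. Their partner eya, a co-activator phosphatase, had 222, 220 and 216 CPM in scrib fos, 119, 103 and 103 CPM in scrib and 364, 352 and 356 CPM in control, still 0.70 below control (adjusted p = 3.31e-08).

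Antennal genes were mostly below control. Of 12 antennal patterning genes, 8 were lower and 1 higher in scrib fos than in control, with a median of -0.33, and the counts were the same without replicate 1 of every genotype. In scrib, against the same control, 8 were lower and 2 higher, with a median of -0.60. Against scrib, scrib fos had 3 higher and 3 lower. The antennal selector gene ss had 45.4, 44.8 and 49.4 CPM in scrib fos, 45.7, 42.2 and 41.6 CPM in scrib and 77.7, 78.1 and 78.0 CPM in control (-0.74, adjusted p = 8.4e-09). Scrib fos overlapped scrib and not control. The homeobox gene ct and the BTB factor gene bab1 fell by 0.52 and 0.87, and against scrib neither ss (0.11), ct (0.11) nor bab1 (-0.03) was called. The 1 higher was the LIM-homeobox gene Awh (0.25), a call lost without scrib fos replicate 3.

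Among 16 secreted growth and stress signals, 5 were called lower and 4 higher than control, with the same counts without replicate 1 of every genotype. The call of bnl, an FGF ligand gene (-0.22), was lost without scrib fos replicate 2 or 3 or without control replicate 1 or 2. It was also lost by the DESeq2 test (0.0547), with no filter (0.0734) and when only the compared groups were fitted (0.101). The call of Pvf1, a VEGF-like ligand gene (0.28), was lost without scrib fos replicate 1 or without control replicate 2 or 3. With all libraries it was lost under the filter of 5 CPM (0.0651), with a replicate block (0.0624) and with only the compared groups (0.0999). The FGF ligand gene ths, whose receptor Heartless acts in glia of the eye disc and in mesoderm, had 16.8, 16.7 and 17.6 CPM in scrib fos, 20.3, 19.2 and 15.2 CPM in scrib, 69.9, 77.0 and 76.8 CPM in fos and 77.8, 76.2 and 73.6 CPM in control (-2.15, SE 0.09, adjusted p = 2.79e-12). The second FGF ligand gene pyr fell by 1.30, further than in scrib (-0.81 against scrib, adjusted p = 3.81e-05). The activin ligand gene Actbeta fell by 2.15 and the TNF ligand gene egr, which can trigger JNK, by 1.09. Among 14 genes of the Wingless, Dpp and Hedgehog pathways, 6 were lower and 1 higher, with a median of -0.10, and the ligand genes wg (0.04) and dpp (-0.08) were not called.

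Some genes differed from control and from scrib in the same direction. They were chosen as called that way, so that direction is fixed by the rule. Among the protein-coding genes eligible to be named, 1555 were higher in scrib fos than in control and 1003 lower. Of these, 429 and 314 were of this kind. The comparisons with control and with scrib share the scrib fos libraries, so these counts only give the size of the group chosen from. The higher genes described here are retinin, which encodes a corneal lens protein, TwdlE, a cuticle protein gene, and lectin-28C, a C-type lectin gene. Another is ltl, which encodes a leucine-rich repeat protein of the Dpp pathway. The fall of PPO1, given with the blood cell markers, was larger in size than the rise of retinin. The level of retinin (3L, 16331933 to 16332789) was 12.8, 12.6 and 13.5 CPM in scrib fos, 0.637, 0.891 and 0.752 CPM in scrib, 1.30, 1.52 and 2.71 CPM in fos and 1.5, 1.62 and 1.34 CPM in control (3.12 against control, SE 0.19, adjusted p = 7.87e-11). In scrib, retinin lay below control with no overlap, so scrib had no rise to exceed. TwdlE had 111, 105 and 95.7 CPM in scrib fos, 21.9, 22.6 and 20.5 CPM in scrib and 40.1, 17.5 and 14.1 CPM in control. Control replicate 1 was high, and the log2 fold change of 2.12 became 2.73 without it. The levels of ltl were 59.7, 60.6 and 61.0 CPM in scrib fos, 32.6, 35.5 and 25.6 CPM in scrib and 19.9, 18.9 and 16.6 CPM in control.

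Glycolytic genes rose slightly. Of 12, 9 were higher and 0 lower in scrib fos than in control, with a median of 0.26, and all 9 were called under every alternative tried. Without replicate 1 of every genotype 11 were higher. At an unadjusted p below 0.05, and with DESeq2, the count of lower genes was also 0. The aldolase gene Ald1 had 350, 356 and 409 CPM in scrib fos, 286, 287 and 281 CPM in scrib and 297, 280 and 296 CPM in control (0.35, adjusted p = 5.55e-05). For lactate dehydrogenase, Ldh, 1 library decided the value: levels were 54.8, 30.2 and 32.8 CPM in scrib fos and 194, 16.1 and 15.9 CPM in control. With all libraries Ldh was not called (-0.94, adjusted p = 0.311), and without control replicate 1 it was called higher in scrib fos (1.31, adjusted p = 8.74e-04).

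Blood cell markers had the lowest median of the 31 lists examined. Of 12 blood cell markers, 10 were lower and 1 higher in scrib fos than in control, with a median of -3.63, and 10 were lower and 0 higher without replicate 1 of every genotype. Their summed level was 53.9 to 58.5 CPM in scrib fos, 173 to 214 CPM in scrib, 297 to 359 CPM in fos and 354 to 537 CPM in control, and none was at 0 in all libraries. The crystal cell enzyme gene PPO1 (2R, 17887220 to 17889973), which encodes a prophenoloxidase of melanisation, had 1.48, 3.66 and 2.36 CPM in scrib fos, 11.2, 21.9 and 22.4 CPM in scrib, 54.9, 66.3 and 57.9 CPM in fos and 74.2, 63.7 and 116 CPM in control. The groups of scrib fos, scrib and control did not overlap (-5.10 against control, SE 0.37, adjusted p = 1.93e-07).

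The plasmatocyte genes eater, NimC1 and Hml, which encode scavenger and clotting proteins, fell by 4.25, 3.96 and 4.04. The level of Hml was 2.69, 2.74 and 2.70 CPM in scrib fos, 24.4, 21.4 and 29.4 CPM in scrib and 30.2, 39.8 and 63.9 CPM in control. In scrib, NimC1 did not differ detectably from control (-0.12, adjusted p = 0.662). The 1 marker called higher was atilla (0.71), a lamellocyte gene, and its call was lost without scrib fos replicate 3 or without control replicate 1. The genes Glt, Pxn and fat-spondin, which encode extracellular proteins, fell by 3.88, 3.45 and 3.57.

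Of 18 matrix and integrin genes, 11 were lower and 2 higher in scrib fos than in control, with a median of -0.54, and the counts were the same without replicate 1 of every genotype. The collagen IV gene Col4a1 had 13.5, 10.4 and 14.4 CPM in scrib fos, 52.9, 46.2 and 53 CPM in scrib and 48.8, 55.1 and 72.7 CPM in control (-2.20, adjusted p = 3.45e-06), and its partner vkg fell by 2.07. The integrin ligand gene Tig (2L, 6415179 to 6423310) had 13.3, 6.91 and 10.1 CPM in scrib fos, 559, 453 and 431 CPM in scrib and 50.4, 31.6 and 40.5 CPM in control. It stood below control in scrib fos (-2.01, adjusted p = 3.09e-05) and above it in scrib (3.56). Laminin genes LanB1 and LanB2 were not called (-0.09 and -0.04). The part that the number of blood cells had in the matrix values was not tested.

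**Figure D4:**
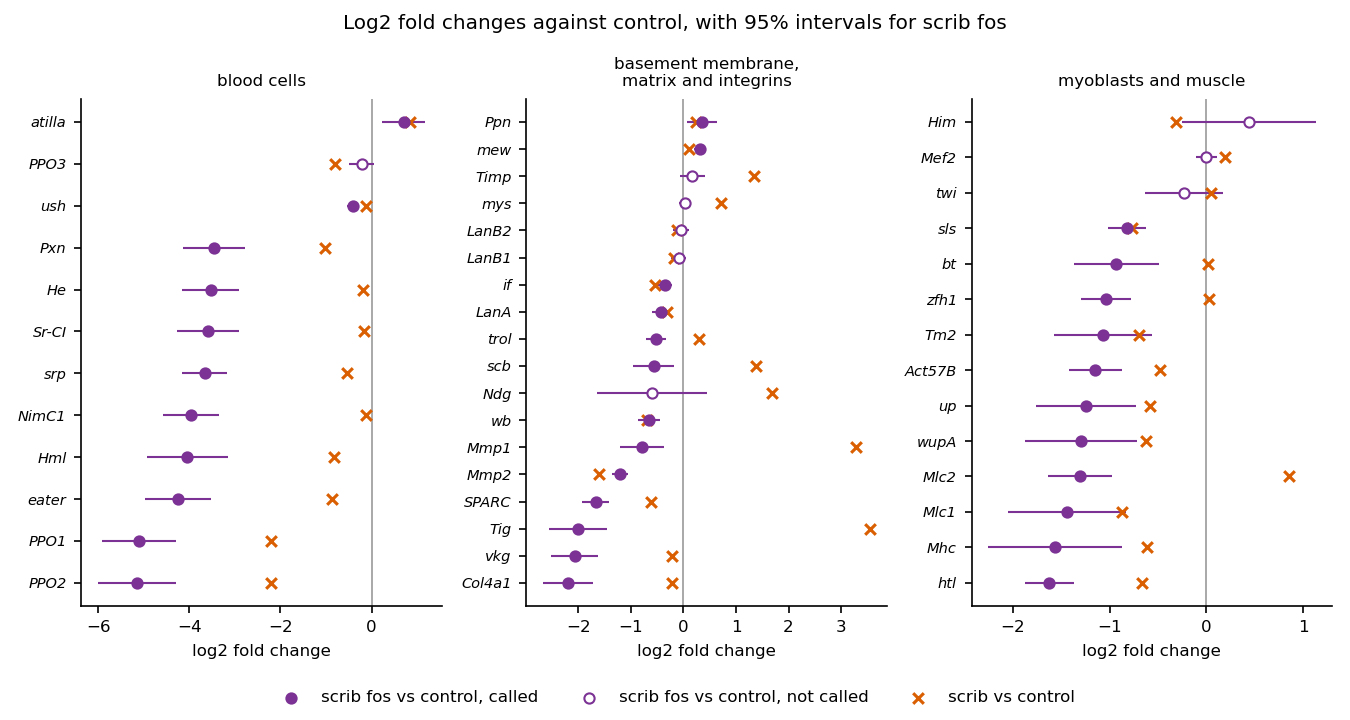
Log2 fold change (horizontal axes) of blood cell markers, of matrix and integrin genes and of myoblast and muscle markers in scrib fos against control (purple, filled where called, with 95% intervals) and in scrib against the same control libraries (orange crosses). Blood cell genes such as PPO1 and Hml lie far left of 0 in scrib fos and nearer to 0 in scrib, Col4a1 and vkg lie left of 0 in scrib fos, and 11 of 14 muscle genes are called left of it.

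Markers of other cells attached to the disc fell too. Of 14 myoblast and muscle markers, 11 were lower and 0 higher, with a summed level of 376 to 417 CPM in scrib fos and 719 to 763 CPM in control, and 10 were lower without replicate 1 of every genotype. Their median was -1.11 in scrib fos, -0.53 in scrib and -0.48 in fos against the same control libraries. The medians of all genes were -0.016, 0.008 and -0.001 in these comparisons. Against fos, scrib fos had 7 of the 14 lower, with a median of -0.60. At an unadjusted p below 0.05, and with DESeq2, the count of higher genes in scrib fos against control was also 0. The FGF receptor gene htl had 4.27, 3.48 and 3.18 CPM in scrib fos, 6.63, 7.32 and 7.18 CPM in scrib and 10.6, 10.5 and 12.5 CPM in control (-1.62, adjusted p = 1.2e-09). The defining myoblast factors twi and Mef2 were not called (-0.23 and -0.00). Of 8 glial markers, 7 were lower, with a summed level of 119 to 128 CPM in scrib fos and 204 to 218 CPM in control, and repo, the factor that defines glia, fell by 1.15. Fat body and salivary gland markers were low in all libraries, with summed levels of at most 34.6 and 1.05 CPM in scrib fos and 47.3 and 5.91 CPM in control.

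Genes of the polarity machinery that scrib belongs to differed little from control. Of 16 polarity and adherens junction genes, 2 were higher and 2 lower in scrib fos than in control, with changes of at most 0.36 in size and a median of -0.01, and without replicate 1 of every genotype 2 were higher and 3 lower. The partners of Scribble, dlg1 and l(2)gl, were not called (-0.02 and -0.01), and l(2)gl stood 0.52 above control in scrib. Among 12 actomyosin genes, 4 were higher and 2 lower, and ena, which elongates actin filaments, fell by 0.62, below both control and scrib (-0.71). Of 19 septate junction genes, 7 were higher and 3 lower, where 22.1% of all genes were higher and 24.5% lower. The gene crok, which helps to assemble the junction, rose by 0.31. Among 13 cell death genes, Diap1 and rpr rose and 3 fell. The killer gene grim averaged 0.237 ± 0.107 CPM in scrib fos and 0.824 ± 0.320 CPM in control (SD, n = 3 each). The Bcl-2 family gene Buffy fell by 1.01. The call of the apoptosome gene Dark (-0.13) was lost without scrib fos replicate 2 or 3 or without control replicate 1 or 2. Other settings also lost it, among them the DESeq2 test (0.0573), no filter (0.16) and the fit of only the compared groups (0.116).

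Of 20 genes of temporal identity and ecdysone response, 7 were lower and 2 higher, and without replicate 1 of every genotype 9 were lower and 1 higher. Eip93F, an ecdysone-induced factor that specifies the adult stage, had 2.22, 2.07 and 1.87 CPM in scrib fos, 1.27, 1.82 and 2.22 CPM in scrib and 12.8, 10.6 and 9.09 CPM in control (-2.40, adjusted p = 1.04e-09). The nuclear receptor genes Hr3, Hr4 and Eip78C were not called against control (-0.51, -0.16 and -0.12), and in scrib they stood at -2.67, -1.25 and -1.14 against the same control.

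**Figure D5:**
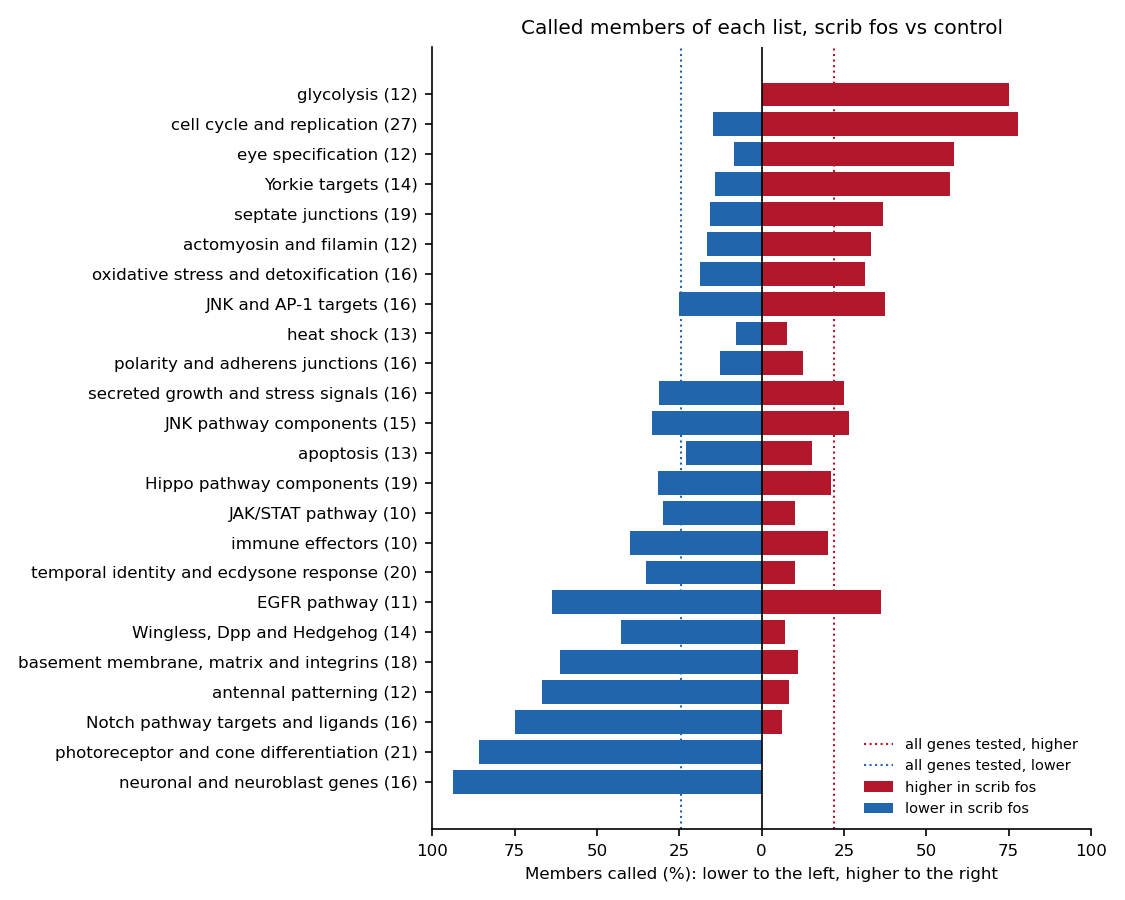
Share of the tested members of each of 24 gene lists called higher (red, right) or lower (blue, left) in scrib fos against control. The horizontal axis is in percent, and the number tested is in brackets. Lists are sorted by the share called higher minus the share called lower, with the shares over all 10834 genes as dotted lines. Glycolysis, cell cycle, eye specification and Yorkie targets reach furthest right, and neuronal, photoreceptor and Notch genes furthest left.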

How the data were processed

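Raw counts per gene were deposited for 18 libraries; the authors made them with Subread and featureCounts on build dm6, per the submitters' processing notes, which also name edgeR. Versions, annotation, strand setting and filters: not given in the sources used here. Coordinates are those of Ensembl BDGP6.54, matched by gene identifier (17425 of 17529 matched).

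Here, genes passing edgeR's filterByExpr (10834 tested, 6695 removed) were scaled by TMM and tested with edgeR 4.0.16 in R 4.3.3 (glmQLFit, robust, and glmQLFTest), with 1 mean per genotype, all 18 libraries and 12 residual degrees of freedom. The common biological coefficient of variation was 8.88%. A gene was called at a Benjamini-Hochberg adjusted p below 0.05 over all tested genes. The SE is the size of the log2 fold change divided by the square root of F. DESeq2 1.42.0, other scalings, other filters and left-out libraries were alternatives. The scripts were tested on simulated data.

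Genes were named when they had a mean of at least 10 CPM and non-overlapping groups and the largest change (against control, beyond scrib, partly restored or back at control), or were the 6 list members with the smallest p; other list members named were chosen after their values were seen. The members and lists were chosen with earlier results of these data known. Some list symbols were respelled to match the annotation. Where strand is unknown, reads of overlapping genes cannot be told apart. Same-numbered libraries of scrib and control deviated together (correlations 0.126, 0.119 and 0.143), those of scrib fos and control did not in every pair (0.205, 0.085 and -0.057).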

Additional observations from a re-analysis of the deposited data

How the results depend on the processing

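The number of genes called in scrib fos against control was 5054 with all libraries, 4050 to 5213 under other scalings, filters and tests, and 4443 to 5112 when 1 library was left out. With a replicate block it was 5062. Leaving out 1 library gave 1033 to 1249 genes changed at least 2-fold (91 to 101 higher and 942 to 1158 lower), 3535 to 3931 called in scrib fos against scrib, 5142 to 5719 in scrib against control and 4476 to 5155 in scrib fos against fos. With a replicate block these last 3 comparisons had 4071, 5782 and 5157 calls. A filter of at least 5 CPM in 3 libraries, which tests fewer genes, left 516 genes changed at least 2-fold (1171 without it), 46 higher (91) and 470 lower (1080). Ldh reversed to 0.98 without replicate 1 of every genotype and to 1.31 without control replicate 1, with -1.40 without control replicate 3 at the other end of the range, and the cause was not tested. Of 6355 values for 427 list and named genes against control, 6047 were uncalled in both fits or called in both in the same direction. A further 219 lost the call and 87 gained it with the same sign, and 2 changed sign with a call in at least 1 fit. Values uncalled in both fits were not compared by sign. Some of these changed sign, such as upd2, at -0.65 with all libraries and 2.34 without control replicate 1. Scaling moved the median of all genes by at most 0.0436. Genes near 0 CPM, such as grim, rest on few counts.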

Other observations

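Of 7 tracheal markers, 2 were higher and 4 lower in scrib fos than in control, with a summed level of 1455 to 1688 CPM in scrib fos and 940.5 to 1022 CPM in control, and the counts were the same without replicate 1 of every genotype. The chitin deacetylase genes serp and verm, which shape the matrix inside tracheal tubes, made up most of that sum. The level of serp was 539, 572 and 630 CPM in scrib fos, 406, 400 and 380 CPM in scrib and 278, 272 and 263 CPM in control (log2 fold change 1.10, edgeR adjusted p = 6.44e-10), and verm rose by 0.55. The FGF receptor gene btl, which defines tracheal cells, had 3.26, 3.4 and 3.04 CPM in scrib fos and 5.50, 4.8 and 5.64 CPM in control.

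Among 10 immune effector genes, 2 were higher and 4 lower, of which 1 and 1 were called under every alternative tried. The peptidoglycan receptor gene PGRP-SA had 4.87, 3.85 and 4.60 CPM in scrib fos, 14.2, 16.3 and 18 CPM in scrib and 1.67, 1.51 and 1.90 CPM in control, so that scrib fos lay between the others without overlap (1.39 against control, adjusted p = 1.89e-06). Among 16 genes of oxidative stress and detoxification, 5 were higher and 3 lower, of which 1 and 3 were called under every alternative tried. The translation inhibitor gene Thor fell by 1.08. Of 13 heat shock genes, 1 was higher and 1 lower. Of 4 salivary gland markers 4 were called lower, 3 of them not under every alternative, at the summed levels given above. Of 8 fat body markers 0 were called by edgeR, 0 by DESeq2 and 0 at an unadjusted p below 0.05, and 2 were called lower without replicate 1 of every genotype. Of 5 germline markers, 1 (bam) was called higher, not under every alternative. On chromosome 4, 96 genes were tested, of which 8 were higher and 40 lower, where 22.1% of all genes were higher and 24.5% lower.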
